A study of Bos taurus with 90 samples.

Results

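Liver biopsies of Holstein-Friesian (HF) steers, taken at the end of 2 feeding phases on a high-concentrate diet, were compared by RNA-Seq. The libraries were chosen by the breed label and the diet label, which gave 16 HF libraries of the first high-concentrate phase (H1) and 13 of the second (H2), 29 of the 90 libraries of the series. H1 held 7 libraries from steers with low residual feed intake (RFI) and 9 from steers with high RFI, and H2 held 5 and 8. RFI is the gap between the feed a steer ate and the feed predicted from its size and growth, so a low value marks an efficient animal. It was ranked anew in each phase and only the extremes were sequenced. The study describes the same ration for both phases, mainly rolled barley, with soya bean meal, molasses, minerals and a limited amount of grass silage. H1 was fed to growing steers and H2 to the same herd at finishing, after a zero-grazed grass phase (ZG, 18 HF libraries) and grazed grass. Diet phase therefore cannot be told apart from age, body size, season and time of sampling.

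Steers 2071, 2101, 2220 and 5632 had a library in both phases, and 2 of these 4 changed RFI group between phases: steer 2071 was of high RFI in H1 and low RFI in H2, and steer 5632 the reverse. Steer number 1797 carries the CH (Charolais) label in H1 and the HF label in H2, so its number and its breed labels do not match up. Without that library 8529 genes passed the test of H2 against H1, against 8594 with it, and without the H2 library of steer 1639, which stood farthest from the others, 8617 passed. No pair of HF libraries held identical counts.

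The liver of a growing ruminant makes glucose from the propionate that the rumen releases, clears amino nitrogen as urea, detoxifies feed compounds and secretes most plasma proteins. In the young animal its cells still divide, and division slows as the organ reaches adult size. Insulin signalling, the circadian clock and the acute phase response of inflammation each adjust this work, and hepatocytes answer the last by secreting haptoglobin, fibrinogen and related proteins.

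The libraries of the 2 phases differed as a whole before any gene was singled out. Totals ran from 9097695 to 47640205 counts in H1 and from 11586997 to 24860020 in H2. The 100 most abundant genes took 47.8% to 55.4% of the counts in H1 (median 52.1%) and 52.6% to 62.9% in H2 (median 55.5%). On the first principal component of the 29 libraries, which held 36.6% of the variance, the 16 H1 libraries lay between -48.7 and -7.2 and the 13 H2 libraries between -7.1 and 84.0. H2 libraries were thus spread along the same direction that separated the phases, with steer 1661 next to the H1 libraries and steer 1639 farthest from them. A similar direction was present within the 18 HF ZG libraries, which took no part in the test of H2 against H1. The animals were not all separate: steers 2065, 2069 and 5632 of H1 and steers 1639, 5612 and 5632 of H2 also gave a ZG library. The leading axis of the ZG libraries held 51.3% of the variance within the ZG groups, and each library was given a score on it. HF H1 libraries scored from -38.8 to 3.6 (median -32.15), H2 libraries from -17.2 to 76.5 (median 24.6) and ZG libraries from -46.7 to 133.7 (median 9.05). Across 13270 genes the H2 to H1 log2 fold change correlated with the loadings of that axis at r = 0.71, a description only, since genes are not independent. What the score measures was not tested. A second fit therefore had this score as a covariate, an addition made after the data were seen, and most changes below are given with their value or call in it. The score differs between the phases, so this second fit also removes change that phase and score share. Each H1 and H2 library's score was computed from its own counts, with the tested gene included. Calls that hold or are lost with the score are therefore no independent check.

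**Figure D1:**
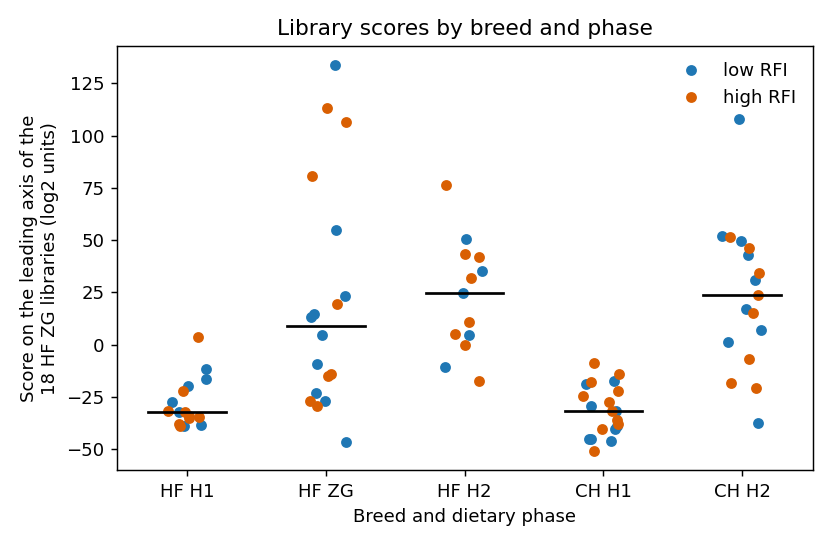
Each point is 1 library, placed by breed and dietary phase (x axis) and by its score on the leading axis of the 18 HF ZG libraries (y axis, log2 units), with blue for low RFI and orange for high RFI, and black bars at the medians. HF H2 libraries reach from -17.2 to 76.5 and overlap the H1 range of -38.8 to 3.6 in part, and the ZG libraries span both.

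In the fit with RFI group as a covariate, 8594 of 13270 genes passed an adjusted p of 0.1 (edgeR quasi-likelihood test), or 64.8%. Of these, 3984 genes were higher in H2 (30.0% of those tested) and 4610 lower (34.7%), and the median log2 fold change of all genes was -0.01. Which direction held more calls depended on the libraries and the scaling, with 50.7% of calls higher without the H2 library of steer 1639 against 46.4% with it. Large changes were mostly falls, with 1110 called genes at least 2-fold lower in H2 and 63 at least 2-fold higher. All 13 H2 libraries lay above all 16 H1 libraries for 45 genes (0.339%) and below them for 104 genes (0.784%). With the score as a covariate, 936 genes were called higher (7.05%) and 677 lower (5.10%), and 1137 of these 1613 calls were also calls of the first fit, 1023 of them in the same direction. Neither fit had a term for steer, so repeated steers entered as separate animals. In the 8 libraries of the 4 repeated steers, paired by steer as a replicate block, 572 genes were called higher and 1757 lower.

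A total of 323 of the genes tested could be given a symbol, because the single table that pairs identifiers with names lists genes the study had called between RFI groups. They are thus no random sample of liver genes. Of the 323, 65 were higher in H2 (20.1%) and 162 lower (50.2%), with a median log2 fold change of -0.32. With the score, 49 of them were called higher and 19 lower, and the median was -0.01. Both fits called 49 of the 323, and 43 of these kept their direction, 30 higher and 13 lower. *LDHD*, a D-lactate dehydrogenase, was 1 of the 6 that did not: its log2 fold change was -0.58 (adjusted p = 0.0309) in the first fit and 0.68 (adjusted p = 0.0286) with the score. In the 4 repeated steers, 44 of the 65 higher genes were higher in every steer and 112 of the 162 lower genes were lower in every steer, although these libraries also entered the fit.

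**Figure D2:**
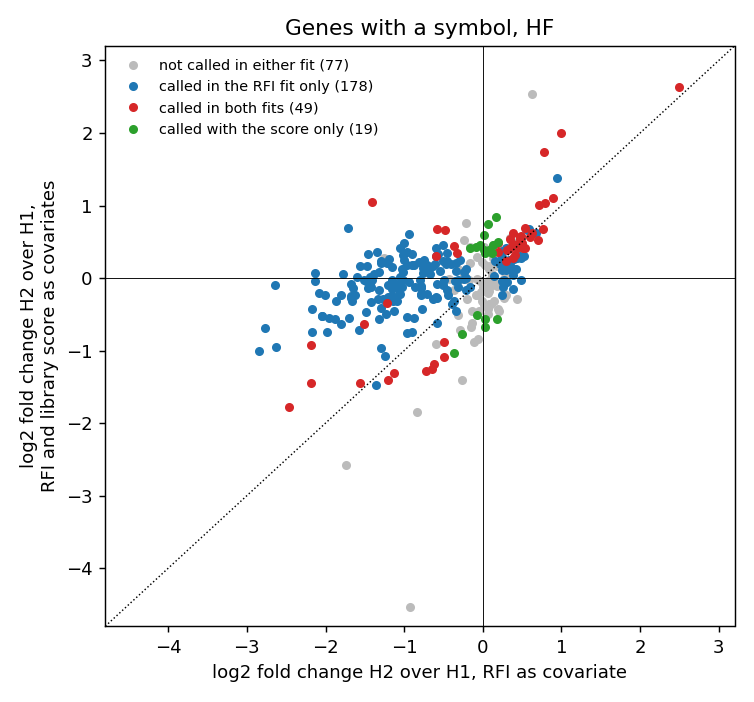
Each point is 1 of the 323 HF genes with a symbol, with the log2 fold change of H2 over H1 from the fit with RFI group (x axis) against that with RFI group and library score (y axis), coloured by which fit called it, and the dotted line marks equal values. Many of the rises lie near the line, while many of the falls lie nearer to 0 on the y axis than on the x axis, and 49 genes were called in both fits.

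Most of the genes of detoxification, heme synthesis and redox defence grouped here rose in H2. Of 14 identifiers tested, 9 were higher (64.3%), 3 lower (21.4%) and 2 not called. *GSTM1* accounts for 2 of these identifiers, both among the 9 higher. This group and those below were formed with earlier results of these data known, so their shares are descriptions only. The shares of all genes with a symbol were 20.1% and 50.2%. The group had a median log2 fold change of 0.46, and with the score 6 were higher and none lower, with a median of 0.45. *PRDX6* (ENSBTAG00000004855), a peroxiredoxin that reduces lipid peroxides, was measured at 94.0 to 197 CPM (counts scaled to the effective library size) in H1 (median 160) and at 201 to 358 in H2 (median 257). The lowest H2 library was above the highest H1 library, and the 18 ZG libraries, at 180 to 351, reached into both ranges. The rise was 0.70 ± 0.09 (SE) on the log2 scale, with an adjusted p of 6.35e-07, and 0.53 ± 0.14 with the score (adjusted p = 0.0256). *EMC3*, a subunit of the complex that inserts proteins into the endoplasmic reticulum membrane, was the other named gene with no overlap, at 116 ± 15.7 CPM in H1 and 159 ± 15.4 in H2 (SD, n = 16 and 13), and its call held with the score, at 0.32 (adjusted p = 0.0736).

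*ALAS1* (ENSBTAG00000004118), the rate-limiting enzyme of heme synthesis in the liver, ran from 97.9 to 256 CPM in H1 (median 176) and from 156 to 427 in H2 (median 293). In H2, 8 of 13 libraries exceeded every H1 library. The rise was 0.79 ± 0.17 on the log2 scale (adjusted p = 0.000271), and 1.04 ± 0.26 with the score (adjusted p = 0.0241). Among the repeated steers it was higher in H2 in 3 of 4, from 110 to 396 CPM in steer 5632 but from 256 down to 185 in steer 2220, and the test paired by steer in the 8 libraries gave 0.91 (adjusted p = 0.142). ZG levels were higher still, with a median of 390 CPM.

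*MAOB*, a mitochondrial monoamine oxidase, ran from 465 to 724 CPM in H1 (median 614) and from 668 to 1047 in H2 (median 874), and 12 of 13 H2 libraries lay above all H1 libraries. It rose by 0.50 ± 0.08 on the log2 scale (adjusted p = 4.89e-06), and by 0.48 with the score (adjusted p = 0.0261). The symbol *GSTM1*, a glutathione S-transferase, names 2 identifiers, near-identical family members between which reads may be split. They rose by 0.72 ± 0.15 and 0.89 ± 0.19 on the log2 scale (adjusted p = 0.000207 and 0.000276), with medians of 219 and 162 CPM in H1 and 348 and 324 in H2. Both calls held with the score, at 1.01 and 1.11, and both were lost in the 4 paired steers, at 0.73 and 0.83 (adjusted p = 0.211 and 0.137). *GSTA4*, of another class of the same enzymes, and *CYP3A5*, a cytochrome P450 of drug and steroid oxidation, rose by 0.59 and 0.42 (adjusted p = 0.00758 and 0.00268), and neither call held with the score, at 0.67 and 0.13 (adjusted p = 0.200 and 0.729).

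*PCBP2* (ENSBTAG00000020757), a poly(C)-binding protein that acts on the stability and translation of mRNAs, had the smallest p among named rises. It ran from 170 to 219 CPM in H1 (median 188) and from 205 to 313 in H2 (median 269), and every H2 library except that of steer 5588 lay above all H1 libraries. The log2 fold change was 0.49 ± 0.06 (adjusted p = 2.00e-07), 0.58 ± 0.09 with the score (adjusted p = 0.00120), and between 0.42 and 0.67 in each of the 4 repeated steers. *EIF4B*, a cofactor of the helicase that unwinds mRNA for translation, ran from 104 to 180 CPM in H1 (median 141) and from 148 to 265 in H2 (median 206). It rose by 0.54 ± 0.09 (adjusted p = 1.36e-05), and by 0.69 with the score (adjusted p = 0.00872). *EIF3I*, a subunit of initiation factor 3, rose by 0.38 (adjusted p = 0.000333) and by 0.47 with the score (adjusted p = 0.0430), and the paired test of the 4 steers gave 0.34 (adjusted p = 0.225).

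Of 10 genes of translation and the ribosome, 4 rose, 3 fell and 3 were not called, and with the score 6 were higher and none lower. *RPL19* and *RPL13*, ribosomal proteins with near-identical processed copies in mammalian genomes that make their counts uncertain, moved in opposite directions in the first fit. *RPL19* was up by 0.35 ± 0.09 (adjusted p = 0.00201) and *RPL13* fell by 0.71 ± 0.15 (log2 fold change -0.71, adjusted p = 0.000318). With the score *RPL19* was at 0.54 (adjusted p = 0.0319) and *RPL13* at 0.18 (adjusted p = 0.514). *IPO5*, an importin that carries ribosomal proteins into the nucleus, ran from 59.2 to 97.5 CPM in H1 and from 85.2 to 147 in H2, a log2 fold change of 0.60 ± 0.08 (adjusted p = 1.06e-06) that stayed at 0.56 with the score (adjusted p = 0.0160).

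Several membrane and trafficking genes were among the 12 rises with the smallest p. *SLC10A5*, of the bile salt transporter family, ran from 3.19 to 8.53 CPM in H1 (median 5.52) and from 6.71 to 13.4 in H2 (median 10.8). This was a rise of 0.77 ± 0.12 on the log2 scale (adjusted p = 4.05e-06), and of 0.67 with the score (adjusted p = 0.0411). *RAB4A*, a small GTPase of early endosomes, rose by 0.54 (adjusted p = 1.36e-06). *TMBIM6*, a calcium regulator of the endoplasmic reticulum that was outside these 12, rose by 0.47 (adjusted p = 2.60e-05), to a median of 3105 CPM in H2. Both calls held with the score, at 0.42 and 0.54. *NDUFA4*, a small subunit of the respiratory chain, rose by 0.51 and held as well, at 0.41 (adjusted p = 0.0543). *FAM149A* and *NUDT3* also held, *CCNDBP1* held at an adjusted p of 0.0716, and *ITM2B* and *YWHAE* did not hold (adjusted p = 0.129 and 0.300).

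**Figure D3:**
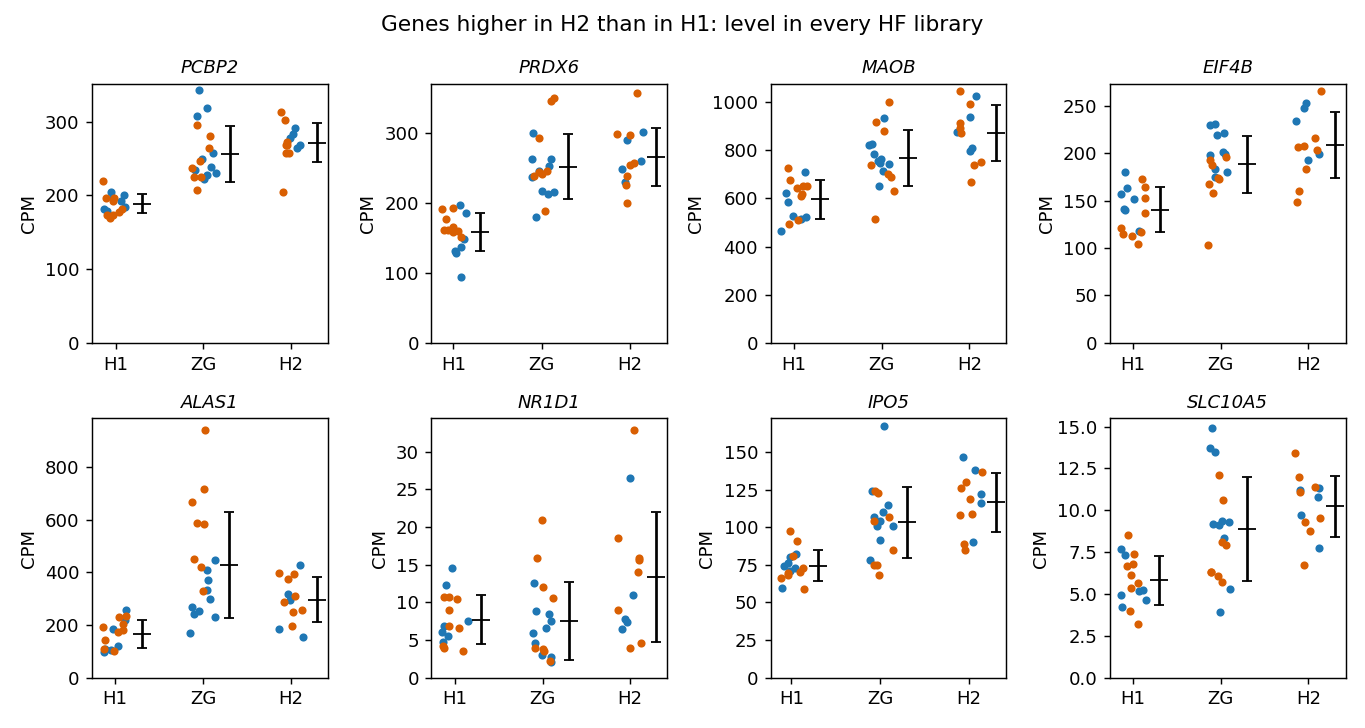
Level in CPM (y axis, from 0) of 8 genes that were higher in H2, in each HF library of H1, ZG and H2 (x axis). Points are libraries, blue for low RFI and orange for high RFI, and the black bar is the mean ± SD of the phase. *PRDX6* shows no overlap between H1 and H2, *PCBP2* has 12 of 13 H2 libraries above H1, and *NR1D1* overlaps widely.

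Of 3 clock genes 2 rose (66.7%, against 20.1% of all genes with a symbol), with a wide spread. *NR1D1* (ENSBTAG00000012178), a rhythmic nuclear receptor that represses clock and lipid genes, ran from 3.59 to 14.6 CPM in H1 (median 6.83) and from 3.96 to 32.9 in H2 (median 11.0). Only 5 of 13 H2 libraries exceeded all H1 libraries, and the rise was 0.78 ± 0.28 (adjusted p = 0.0207). With the score the value was 1.74 ± 0.36 (adjusted p = 0.00981). Leaving out the H2 libraries of the 4 repeated steers ended the call, at 0.34 (adjusted p = 0.270). *NOCT*, a phosphatase of NADPH with a strong daily rhythm, rose by 0.99 ± 0.36 (adjusted p = 0.0200), from a median of 4.24 to 10.4 CPM, and was at 2.00 with the score (adjusted p = 0.0411). *NFIL3*, a rhythmic repressor, was not called, at -0.08 (adjusted p = 0.520), and was lower with the score, at -0.51 (adjusted p = 0.0491).

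Of 23 genes of mitosis and DNA replication, 12 were lower in H2 (52.2%, against 50.2% of all genes with a symbol), 2 higher and 9 not called, with a median log2 fold change of -0.29, and with the score 4 were lower and 1 higher, with a median of -0.46. *KIFC1* (ENSBTAG00000001631), a kinesin that bundles spindle microtubules, ran from 1.14 to 4.18 CPM in H1 (median 2.30) and from 0.283 to 2.15 in H2 (median 0.812). In 12 of 13 H2 libraries it lay below all H1 libraries, steer 5588 being the exception, and in ZG it had a median of 0.730 CPM. The fall was -1.56 ± 0.23 on the log2 scale (adjusted p = 3.27e-06), and -1.44 ± 0.39 with the score (adjusted p = 0.0308). *TROAP*, a spindle protein, fell by 1.20 (log2 fold change -1.20, adjusted p = 8.29e-05), and was at -1.41 with the score (adjusted p = 0.0305), with a median of 1.63 CPM in H1 and 0.731 in H2. Both genes were lower in H2 in each of the 4 repeated steers.

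*BUB1* and *BUB1B*, kinases of the spindle checkpoint, fell by less, at -0.62 ± 0.23 and -0.49 ± 0.25 (adjusted p = 0.0233 and 0.0913), and with the score they were at -1.18 and -1.09 (adjusted p = 0.0473 and 0.0962). *BUB1B* was no longer called on leaving out any 1 of the 5 low RFI libraries of H2, with values from -0.50 to -0.33. In the 4 paired steers neither was called, at -0.54 and -0.28 (adjusted p = 0.379 and 0.624). *MCM2*, a subunit of the replicative helicase, ran from 4.26 to 12.9 CPM in H1 (median 5.29) and from 1.01 to 5.11 in H2 (median 2.69), and 10 of 13 H2 libraries lay below all H1 libraries. Its fall of -1.13 ± 0.21 (adjusted p = 4.89e-05) was not called with the score, at -0.46 (adjusted p = 0.360), nor in the 4 paired steers, at -0.58 (adjusted p = 0.229). *CCND1*, the cyclin of early G1, and *TONSL*, which protects stalled replication forks, fell to -1.22 and -1.57 (adjusted p = 7.24e-05 and 1.12e-06), and were at -0.32 and -0.72 with the score (adjusted p = 0.581 and 0.106).

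The largest falls among named genes were in genes of low level. *IRS2* (ENSBTAG00000012019), the adaptor that carries the insulin signal in hepatocytes, ran from 1.34 to 11.6 CPM in H1 (median 4.68) and from 0 to 2.16 in H2 (median 0.502), and 11 of 13 H2 libraries lay below all H1 libraries. ZG levels lay between, with a median of 1.66 CPM. The log2 fold change was -2.77 ± 0.38 (adjusted p = 1.56e-06), and it fell in each of the 4 repeated steers, for example from 8.24 to 0.767 CPM in steer 2101. With the score it was -0.69 ± 0.38 and no longer called (adjusted p = 0.282). *LOC104975755* and *LRRC61*, at most 5.18 and 3.47 CPM in H1, were at -2.84 and -2.64 (adjusted p = 1.24e-06 and 1.27e-05) and were not called with the score either.

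*ESPNL* (ENSBTAG00000010164), an espin-like actin-binding protein, was the 1 named gene with every H2 library below every H1 library. It ran from 7.79 to 34.6 CPM in H1 (median 14.8), from 0.110 to 17.4 in ZG and from 0.710 to 7.43 in H2 (median 3.62). The fall of -2.17 ± 0.28 (adjusted p = 7.89e-07) became -0.75 with the score (adjusted p = 0.146). *CACNA1H*, a T-type calcium channel subunit, ran from 3.74 to 18.9 CPM in H1 (median 9.64) and from 0.609 to 6.20 in H2 (median 1.56), and 11 of 13 H2 libraries lay below all H1 libraries. Its fall of -2.18 ± 0.29 (adjusted p = 1.20e-06) was still called with the score, at -1.44 (adjusted p = 0.0437).

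All 12 transcription factors and cofactors grouped here fell (100%, against 50.2% of all genes with a symbol), with a median log2 fold change of -1.10. The group does not hold every named factor: *NR1D1*, which rose, and *NFIL3*, which was not called, were counted with the clock genes. *ATF5* and *JUN*, which fell, are described with the stress genes. The group was formed with earlier results of these data known, so its share is a description only. With the score 1 was called lower and none higher, with a median of -0.17. *ZNF219* ran from 1.92 to 7.30 CPM in H1 (median 3.78) and from 0.228 to 2.16 in H2 (median 0.747), a change of -2.19 ± 0.25 (adjusted p = 2.00e-07), and was the 1 that stayed, at -0.92 (adjusted p = 0.0543). *MZF1*, *ZXDC* and *NR0B2*, the last a nuclear receptor without a DNA-binding domain that represses bile acid synthesis, were at -1.96, -1.33 and -1.11, and at -0.55, -0.29 and -0.08 with the score. Of 14 receptors, adhesion and matrix genes, 11 fell (78.6%, against 50.2% of all genes with a symbol), none rose and 3 were not called. The group had a median of -1.23, and with the score 2 were lower, with a median of -0.24. *TNC*, the matrix protein tenascin C, ran from 11.5 to 105 CPM in H1 (median 40.6) and from 6.03 to 34.5 in H2 (median 14.0). Its value was -1.36 (adjusted p = 0.00190), and -1.47 but not called with the score (adjusted p = 0.153).

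Among the other falls with the smallest p, *WDR90*, a protein of cilia and centrioles, and *SLC12A7*, a potassium-chloride cotransporter, stayed called with the score. *WDR90* went from -1.51 to -0.64 (adjusted p = 0.0573) and *SLC12A7* from -1.22 to -0.35 (adjusted p = 0.0676). *PPP1R16A*, *NOXA1* and *NUP210* were at -2.04, -1.98 and -1.14 and did not stay called. *SLC39A4*, a zinc importer of the cell membrane, was at -1.63 ± 0.26 (adjusted p = 7.87e-06), with medians of 5.71 CPM in H1 and 1.66 in H2, and at -0.23 with the score (adjusted p = 0.709).

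**Figure D4:**
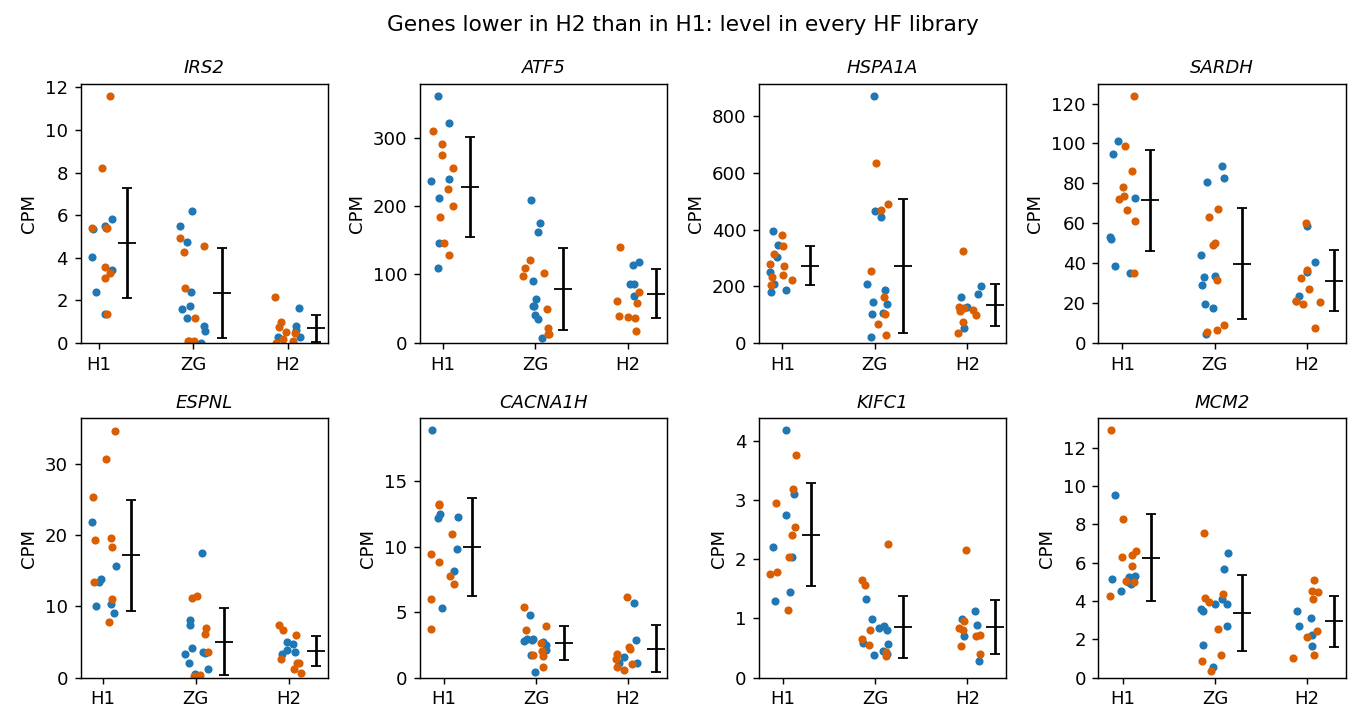
Level in CPM (y axis, from 0) of 8 genes that were lower in H2, in each HF library of H1, ZG and H2 (x axis). Points are libraries, blue for low RFI and orange for high RFI, and the black bar is the mean ± SD of the phase. *ESPNL* shows no overlap between H1 and H2, and ZG libraries of *ATF5*, *SARDH* and *HSPA1A* span both phases. With the library score as a covariate, *CACNA1H* and *KIFC1* were the 2 of these 8 still called.

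Of 12 stress genes 8 were lower (66.7%, against 50.2% of all genes with a symbol), 1 higher and 3 not called, and with the score 1 was higher and 1 lower. *ATF5*, a transcription factor of the mitochondrial stress response, ran from 109 to 361 CPM in H1 (median 231) and from 16.9 to 140 in H2 (median 68.1), and 10 of 13 H2 libraries lay below all H1 libraries. The change was -1.70 ± 0.24 (adjusted p = 2.16e-06), and -0.55 with the score (adjusted p = 0.181). *HSPA1A*, an inducible heat shock protein with near-identical copies, and *HSPB1*, a small heat shock protein, were at -1.06 and -0.90 (adjusted p = 0.000279 and 0.000257), and at -0.22 and 0.18 with the score. *GADD45G*, *JUN* and *TNFAIP3*, induced early by stress and inflammation, were at -1.16, -0.46 and -0.44 (adjusted p = 0.000159, 0.00386 and 0.00201), and none was called with the score.

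Genes of amino acid and purine breakdown split. Of 14, 5 rose (35.7%), 4 fell (28.6%) and 5 were not called. The shares of all genes with a symbol were 20.1% and 50.2%. The group had a median of 0.12, and with the score 2 were higher and none lower. The falls were led by *AGXT*, which converts glyoxylate to glycine, at 83.0 ± 26.4 CPM in H1 and 40.6 ± 14.4 in H2 (SD), and by *SARDH*, which oxidises sarcosine, at 71.5 ± 25.6 and 31.1 ± 15.4. Their changes of -1.05 ± 0.18 and -1.22 ± 0.24 (adjusted p = 2.21e-05 and 0.000120) were at 0.02 and 0.21 with the score. *ALDH4A1*, of proline breakdown, was likewise at -0.90 (adjusted p = 0.000479) and at 0.33 with the score (adjusted p = 0.132). *DMGDH*, which acts 1 step before *SARDH* on dimethylglycine, rose instead, by 0.39 ± 0.10 (adjusted p = 0.00140), from a median of 150 to 191 CPM, and was at 0.12 with the score (adjusted p = 0.692). *GOT2*, the mitochondrial aspartate aminotransferase, rose by 0.24 (adjusted p = 0.0120), and was not called with the score, at 0.20 (adjusted p = 0.387), nor in the 4 paired steers, at 0.41 (adjusted p = 0.176).

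Of 9 genes of carbohydrate metabolism and insulin signalling, *IRS2* among them, 2 rose (22.2%), 5 fell (55.6%) and 2 were not called. The shares of all genes with a symbol, 20.1% and 50.2%, were near these. The group had a median of -0.46, and with the score 3 were higher and none lower. *PPP1R3C*, which brings a phosphatase to glycogen, ran from 133 to 402 CPM in H1 (median 252) and from 246 to 596 in H2 (median 361). It rose by 0.67 ± 0.16 (adjusted p = 0.000829) and was at 0.62 but not called with the score (adjusted p = 0.175). *GNPDA1*, which returns glucosamine 6-phosphate to glycolysis, rose by 0.42 (adjusted p = 3.71e-05), and by 0.46 with the score (adjusted p = 0.0261). Of 13 lipid genes, 2 rose (15.4%), 5 fell (38.5%) and 6 were not called. *G0S2*, an inhibitor of fat breakdown, was at -0.80 ± 0.19 (adjusted p = 0.000973) and at -0.02 with the score. *MID1IP1*, which activates fatty acid synthesis, was at -0.31 (adjusted p = 0.0646) and at -0.03 with the score (adjusted p = 0.956). That call was lost on leaving out the H2 library of steer 1797, 2071, 2220, 5612 or 1639, with values from -0.27 to -0.23. *DGAT2*, the last step of triglyceride synthesis, was at -0.01 ± 0.22 (adjusted p = 0.979), with medians of 29.2 CPM in H1 and 36.5 in H2. Steer 2065 had 140 CPM in H1, where the next library had 42.3, and the 4 repeated steers were higher in H2 by 0.15 to 0.36 on the log2 scale.

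Secreted plasma proteins were mostly not called in the first fit. *FGA* and *FGG*, chains of fibrinogen, were the 2 named members of the 10 most abundant genes, with H1 medians of 11803 and 11923 CPM and H2 medians of 11565 and 13029. Fibrinogen is a hepatocyte product, so hepatocyte RNA was present in the biopsies. Of 12 lists of cell type markers, hepatocyte markers included, none had a member with a symbol, so the share of any cell type could not be read. Of 10 acute phase, complement and coagulation genes, 1 was lower (10.0%, against 50.2% of all genes with a symbol) and 9 were not called. *HP*, haptoglobin, ran from 35.1 to 7356 CPM in H1 (median 176) and from 24.9 to 8016 in H2 (median 151), a log2 fold change of -0.92 ± 1.00 (adjusted p = 0.439) and of -4.54 ± 1.76 with the score (adjusted p = 0.116). The H2 library of steer 1639, at the end of the score, was the highest of the phase in *HP*, in *LBP*, the lipopolysaccharide-binding protein, at 949 CPM, in *SERPINA3*, at 1801, and in *FGG*, at 40879. Without it *HP* and *LBP* were called lower in H2, at -2.60 and -0.69 (adjusted p = 0.0229 and 0.0387), against -0.92 and -0.26 with it. *SERPINA3*, a protease inhibitor, went from -0.65 (adjusted p = 0.0569) to -0.95 (adjusted p = 0.00133). The *SERPINA3* call was lost without the H2 library of steer 1797, 2220 or 5612, with values from -0.57 to -0.53. With the score *SERPINA3*, *FGA* and *FGG* were called lower, at -1.25, -0.56 and -0.57 (adjusted p = 0.0883, 0.0946 and 0.0971). How far these 3 calls rest on steer 1639 was not tested, as no fit with the score left that library out.

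Leukocyte genes gave no common direction. Of 11, 3 rose (27.3%), 2 fell (18.2%) and 6 were not called, and none was called with the score. The shares of all genes with a symbol were 20.1% higher and 50.2% lower in the first fit. *PTPRCAP*, a partner of the leukocyte phosphatase CD45, and *UNC13D*, of cytotoxic granule release, were at -1.49 and -1.23 (adjusted p = 1.80e-06 and 3.27e-06). *GIMAP8*, a GTPase of lymphocytes, was at 0.94 (adjusted p = 0.0697), and at 0.66 (adjusted p = 0.237) without the library of steer 1797, which had 177 CPM. By limma *GIMAP8* was not called either, at 0.66 with steer as a replicate block over all 29 libraries (adjusted p = 0.135) and without it (adjusted p = 0.152). A smaller share of a cell type and less RNA per cell cannot be told apart in such biopsies.

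The 4 repeated steers allow each gene to be followed within an animal, although 2 of them also changed RFI group. *PRDX6* was higher in H2 by 0.56, 0.57, 0.34 and 0.77 on the log2 scale in steers 2071, 2101, 2220 and 5632, and *IPO5* by 0.60, 0.51, 0.94 and 0.55. *MAOB* was higher by 0.54, 0.56, 0.37 and 0.94. These rises were thus present in every steer, with the smallest in steer 2220 for *PRDX6* and *MAOB*. The falls varied from gene to gene. *SLC39A4* was lower by similar amounts in all 4, from -1.99 to -1.35. *ATF5* was at -0.68, -2.24, -2.40 and -0.88, *SARDH* at -0.56, -1.91, -2.13 and -0.51, and *MCM2* at -0.26, -0.28, -1.41 and -0.15. Steers 2101 and 2220 gave the deeper falls in *ATF5* and *SARDH*, and their H2 libraries scored 11.0 and 50.5, against -10.9 and -0.2 for steers 2071 and 5632. *CACNA1H* did not follow this order, with its deepest fall, -3.33, in steer 5632. Whether score and depth of fall go together was not tested, and these genes also enter the score. *NR1D1* was higher in H2 in all 4 steers, by 0.29 to 2.20, and *NOCT* by 0.69 to 2.03. *HP* went in both directions, from 3425 to 327 CPM in steer 2071, from 114 to 151 in steer 2101, from 66.2 to 1616 in steer 2220 and from 7356 to 189 in steer 5632. All 4 pairs were part of the 29 libraries tested, so they are no second test.

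The change from H1 to H2 was then set apart by RFI group. Within low RFI 2905 genes were higher and 3881 lower in H2, and within high RFI 2886 were higher and 3583 lower. The difference between the 2 changes was called for 1 of 13270 genes (0.00754%), with 1169 at an unadjusted p under 0.05, and DESeq2 called 11. That gene, ENSBTAG00000014758, has no symbol here. It was at 0.680 to 1.84 CPM in low RFI and 1.31 to 2.45 in high RFI libraries of H1, and at 1.31 to 2.83 and 0.847 to 1.85 in H2. It rose by 1.01 in low RFI and fell by 0.63 in high RFI (log2 fold changes 1.01 and -0.63), a difference of 1.64 ± 0.30 (adjusted p = 0.0802). Among named genes *RAB4A* was at 0.79 in low and 0.37 in high RFI and *PCBP2* at 0.49 in both. *NOCT* was called in low RFI, at 1.68 (adjusted p = 0.0163), and not in high RFI, at 0.52 (adjusted p = 0.363), but the difference was not called.

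The same phases in Charolais (CH) steers, 20 libraries of H1 and 17 of H2, shared no library with the HF comparison. Steers 307, 364, 1100 and 1320 had a CH library in both phases, and 307 and 1100 changed RFI group. Like the main HF fit, the CH fit and the breed by phase fit treated all libraries as separate animals. In CH 9009 of 13228 genes were called (68.1%). Both breeds called 7503 genes, which is 87.3% of the HF calls and 83.3% of the CH calls, and 7501 of these had the same direction. Across the 13109 genes tested in both, the log2 fold changes correlated at r = 0.92, a description over genes that are not independent. The breed by phase term was called for none of 13673 genes (0%) by edgeR and for none by DESeq2, with 334 genes at an unadjusted p under 0.05 in edgeR. A lack of calls does not show that the breeds changed alike. *PCBP2* was at 0.49 in HF and 0.53 in CH, *PRDX6* at 0.70 and 0.75, *KIFC1* at -1.56 and -1.91 and *IRS2* at -2.77 and -2.02. *HP* was at -0.92 in HF and 1.83 in CH (adjusted p = 0.439 and 0.0791), with a difference of -2.76 ± 1.30 that was not called. *NOCT* was at 0.99 in HF and 0.13 in CH (adjusted p = 0.0200 and 0.767), with a difference of 0.95 ± 0.56.

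**Figure D5:**
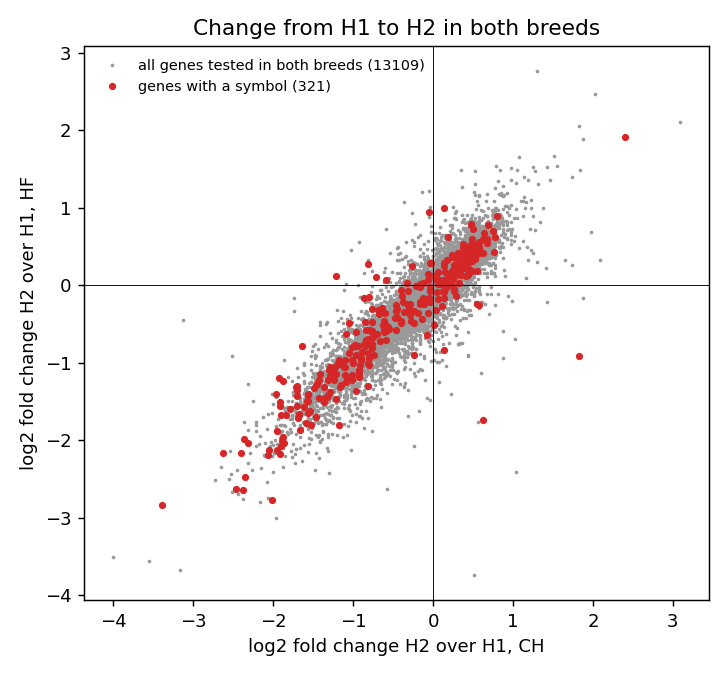
Log2 fold change of H2 over H1 in HF (y axis) against the same change in CH (x axis), with 1 grey point for each of the 13109 genes tested in both breeds and red points for genes with a symbol. The points follow a common line (r = 0.92 across genes), and falls reach farther from 0 than rises in both breeds.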

How the data were processed

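Liver biopsies were sequenced as 50 base-pair single-end reads from a stranded mRNA kit, after selection for RNA integrity. Per the labels, the authors aligned reads with STAR version 2.5.3a to UMD3.1 and deposited raw counts per Ensembl gene (24616 genes, 90 libraries). The counting tool's strand setting is not given in the sources used here. Here edgeR 4.0.16 (R 4.3.3) was used: filterByExpr, TMM scaling, robust quasi-likelihood fit with RFI group and phase, Benjamini-Hochberg adjusted p under 0.1 over all genes tested. SE is the log2 fold change over the root of F. Levels are CPM, scaled over 47 HF libraries. The score is the projection on the first principal component of log2 CPM (prior count 2) of the 18 ZG libraries centred on their groups, over 13908 genes. DESeq2 1.42.0 and limma 3.58.1 served as alternatives.

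Gene names came from a supplementary table of the study (328 of 352 identifiers), used for names alone. Named genes were the 12 with the smallest p and 6 with the largest change per direction, up to 4 per direction from each of 39 lists, and the most abundant. A gene that this rule names is not reported here. *AGXT*, *CCND1*, *DGAT2*, *EIF3I*, *EIF4B*, *EMC3*, *GNPDA1*, *HP*, *KIFC1*, *LBP*, *LDHD*, *NFIL3*, *PTPRCAP*, *TMBIM6*, *TROAP* and *UNC13D* were added after their values were seen. At most 5 members of any list, and 25.0% of any list, had a name, so list-wide checks are void and genes were grouped by textbook role instead. Members, lists and groups were chosen with earlier results of these data known.

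Same-numbered HF libraries were taken as the same steer (number 1797 has 1 HF library in these phases), but the main fit had no term for steer. Deviations from the group means of the 4 repeated steers correlated at 0.06 to 0.43, and the steer as a replicate block (limma, correlation 0.15) gave 8664 calls. HF steers of H1 and H2 are separate animals otherwise. The scripts were tested on simulated data.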

Additional observations from a re-analysis of the deposited data

Results flagged for a closer look

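In 308 groups of libraries (76 named genes and the score, in 4 groups of phase and RFI), 42 held a library whose gap to its nearest neighbour was large for the range of the group (Dixon's criterion). A rate of 1 in 20 would be 15.4, but that rate assumes normal and independent values. Here levels were untransformed CPM and the same libraries recur, steer 1639 in 6 of the 42, so no excess over chance can be read. What sets these libraries apart was not tested.

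Several plasma protein genes were involved. In H2 high RFI, steer 1639 stood above the rest in *HP* (8016 CPM, next 274), *FGG* (40879, next 15356), *FGA* (34834, next 12861), *C5* (5323, next 2730), *SERPINA3* (1801, next 480) and *LBP* (949, next 210). In H1 high RFI, steer 2071 stood highest in *FGA* (18496), *FGG* (19130) and *LBP* (442). *HP* was also apart in steer 5632 of H1 low RFI (7356) and steer 2220 of H2 low RFI (1616). *FGA* was low in steer 2220 of H1 (9084) and steer 5612 of H2 (9139).

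The following libraries were highest within their own RFI group and phase. Steer 5588 (H2 high RFI) was so in *KIFC1* (2.15 CPM), *TROAP* (2.3) and *GADD45G* (12). Steer 1661 (H2 high RFI) was so in *ATF5* (140), *HSPA1A* (325), *CACNA1H* (6.2), *IRS2* (2.16) and *LDHD* (31.7). Steer 1657 (H2 low RFI) was so in *TNC* (34.5) and *GADD45G* (8.83), and steer 2064 (H1 high RFI) in *TNC* (94.9), *NUP210* (57.8) and *JUN* (23.6). Steer 2071 (H2 low RFI) was so in *NR1D1* (26.5) and *ZXDC* (4.03). *GIMAP8* was apart in steer 2101 of H1 (91.2) and steer 1797 of H2 (177), and steer 1797 also in *EMC3* (195). *MCM2* was apart in steers 1811 (12.9) and 1656 (9.51) of H1.

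Other single libraries of H1 were apart in *DGAT2* (steer 2065, 140 CPM), *RPL19* (steer 2065, 280), *PTPRCAP* (steer 5613, 10.2), *NOCT* (steer 5624, 20.5) and *EIF3I* (steer 2220, 140). In H2 they were *GSTA4* (steer 1645, 564), *MID1IP1* (steer 5617, 53.3) and *JUN* (steer 2220, low at 7.64). The score of steer 2069 in H1 was 3.6, against -22.4 for its nearest neighbour in that group. ENSBTAG00000014758 is listed because its change differed between low and high RFI, by 1.64 on the log2 scale (edgeR, adjusted p = 0.0802).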

How the results depend on the processing

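The count of 8594 genes stayed within 1.5 times of its value, from 6246 to 9508, under all alternatives but 3. The first was a fit paired by steer as a replicate block in the 8 libraries of the 4 repeated steers, with 2329 calls, 572 higher and 1757 lower. The others, chosen after seeing the data, had a library score as covariate, with the leading axis taken from the HF ZG libraries (1613 calls, 936 higher, 677 lower and 231 at least 2-fold lower) or from the CH H2 libraries (1688, 1014, 674 and 175). Higher genes made up 24.6%, 58.0% and 60.1% of calls in these 3 fits, against 46.4%. The small excess of lower calls also turned over on leaving out the H2 library of steer 1657, 1797, 2071, 2220, 5612 or 1639 (50.7% to 51.5% higher), with DESeq2 size factors (50.3%), with the H2 library kept per steer (51.6%) and with 6 HF groups in a fit (50.1%). The pairing by steer over all 29 libraries (limma, replicate block) gave 8664 calls against 8525 without it, and among the named genes changed no call that limma made without it.

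The count of genes at least 2-fold higher, 63, depended most on the settings: 169 by DESeq2, 305 without a filter on low counts, 14 with at least 10 counts in every library, 142 in low RFI alone, and 98 and 116 with 6 and 12 groups in a fit. Genes at least 2-fold lower, 1110, were 1708 without the filter and 526 with at least 10 counts. Leaving out each of the 5 low RFI H2 libraries gave 8529 to 9031 calls, 4359 to 4652 higher, 4166 to 4379 lower, 82 to 89 at least 2-fold higher and 958 to 1146 at least 2-fold lower. DESeq2 called 11 genes for the difference between RFI groups, against 1.

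Of 76 named identifiers, signs turned with the ZG and CH H2 scores in *ALDH4A1* (0.33 and 0.31), *SARDH* (0.21 and 0.16), *HSPB1* (0.18 and 0.17), *RPL13* (0.18 and 0.15), *FGG* (-0.57 and -0.56), *FGA* (-0.56 and -0.56) and *LDHD* (0.68 and 0.64), and with the ZG score in *AGXT* (0.02). No other alternative turned a called sign. The ZG score ended the call of another 33, and pairing the 4 steers that of 22, where 8 libraries were left. The cause of the score's effect was not tested. Depth limits genes near 1 CPM most, since the shallowest library held 9097695 counts.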
